A study of Mus musculus with 28 samples.

Results

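The change between 3.5 h and 16 h within cultures of murine bone marrow-derived macrophages (BMDMs) that had received von Willebrand factor (VWF) was described across all genes. The 10 cultures were chosen by their labels alone, 5 treated with VWF for 3.5 h and 5 for 16 h, out of 28 cultures in the series. BMDMs are macrophages grown from marrow progenitors, here from C57BL/6 mice aged 8 to 12 weeks, with macrophage colony-stimulating factor (M-CSF) for 7 days. All groups then received fresh medium with 1 mM calcium chloride, and the VWF groups received plasma-derived VWF at 10 µg/ml. The groups used for comparison were 5 control cultures given PBS and 4 cultures given 100 ng/ml bacterial lipopolysaccharide (LPS) at each time. Total RNA was sequenced and the reads assigned to each gene were counted. The labels call the replicates biological, but what they stand for (mice or separate wells of one marrow pool) is not given in the sources used here, so the p-values measure the spread between these cultures. No untreated culture at the start of incubation was analysed here, so each change over time is also set beside the change in control cultures.

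VWF is a large multimeric plasma glycoprotein that carries factor VIII and tethers platelets to the injured vessel wall. Activated macrophages pass through a programme in which NF-κB and other stimulus-responsive factors first drive cytokine and chemokine genes together with genes for their own inhibitors, such as IκBα and A20. Secreted interferon β then acts through its receptor and STAT factors on genes that carry an interferon-stimulated response element. Macrophages in M-CSF can also divide, and E2F factors drive the genes that license and copy DNA before the cyclin B and CDK1 genes of mitosis.

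Total counts lay between 46021894 and 76943833 per culture at 3.5 h and between 49077751 and 77699206 at 16 h (exact permutation test, 2-sided, p = 0.5), so that sampling error was small for all but the lowest genes. The 50 genes with most reads took 18.8% to 21.8% of the counts at 3.5 h and 24.5% to 27.1% at 16 h, without overlap (exact permutation test, p = 0.00794, the smallest value this design allows). The first principal component held 83.7% of the variance and separated the times, and on the next component, which held 9.3%, replicates 1 and 5 lay apart from replicates 3 and 4 within the 3.5 h group and replicate 3 lay apart from replicate 4 within the 16 h group. The labelled cell type was borne out by the macrophage markers, all 9 of which passed the filter and whose summed level was 12880 to 17590 CPM (counts scaled to library size with TMM factors) at 3.5 h and 19190 to 27870 CPM at 16 h, with Lyz2 the highest. Of the 9, Lyz2, Adgre1, Mertk and Fcgr1 were called higher at 16 h and Cd14 and Spi1 lower. Summed markers of several other cell types were low and fell without overlap (exact permutation test, p = 0.00794 each, unadjusted over 11 marker lists). Dendritic cell markers summed to 14.1 to 20.9 CPM at 3.5 h and 1.20 to 4.27 CPM at 16 h, and megakaryocyte and platelet markers to 13.1 to 21.5 CPM and 5.69 to 11.6 CPM. T cell markers summed to 6.72 to 8.90 CPM and 2.54 to 3.68 CPM, and endothelial markers to 5.41 to 6.44 CPM and 2.21 to 3.83 CPM. B cell markers spanned 11.5 to 26.2 CPM at 3.5 h and 9.02 to 12.0 CPM at 16 h. NK cell markers summed to at most 1.60 CPM, mast cell and basophil markers to at most 1.79 CPM and erythroid markers to at most 0.316 CPM in any of the 10 cultures. Neutrophil markers summed to 5.34 to 29.6 CPM at 3.5 h and 16.2 to 37.8 CPM at 16 h, with the defining marker Ly6g at 0 in all 10. Fibroblast and stromal markers, led by Col1a2, spanned 59.5 to 414 CPM at 3.5 h and 59.9 to 300 CPM at 16 h. The part of such cells in the results was not tested.

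Of the 7927 genes that reached 10 TPM, transcripts scaled to length and depth, in at least 1 of the 10 cultures, 1694 (21.4%) changed between 3.5 h and 16 h of VWF. A gene was called when its adjusted p was under 0.05 and its fold change over 2 (edgeR quasi-likelihood test, Benjamini-Hochberg adjustment, which gives every adjusted p in the text). At 16 h 725 genes (9.15%) were higher and 969 (12.2%) were lower. The fall was the steeper side: of the 72 called genes that differed by over 16-fold, 67 were lower at 16 h and 5 were higher. Over all tested genes the middle log2 fold change was 0.02, while the called genes had a median absolute change of 1.51. In 4248 of the tested genes (53.6%) the 5 CPM values at 16 h did not overlap the 5 at 3.5 h, so a lack of overlap alone was common. Because 1 culture at 10 TPM sufficed, 773 genes passed only through the 3.5 h group and 584 only through the 16 h group, and the filter itself favours a fall of the former and a rise of the latter. Among the 6570 that reached 10 TPM at both times, which leaves out the steepest changes, 6.24% were higher and 9.06% lower. Counts and medians of the gene lists are descriptions with this limit, to be read beside the 9.15% higher and 12.2% lower of all tested genes. In these bulk samples, fewer cells that express a gene and less of its RNA per cell cannot be told apart.

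**Figure D1:**
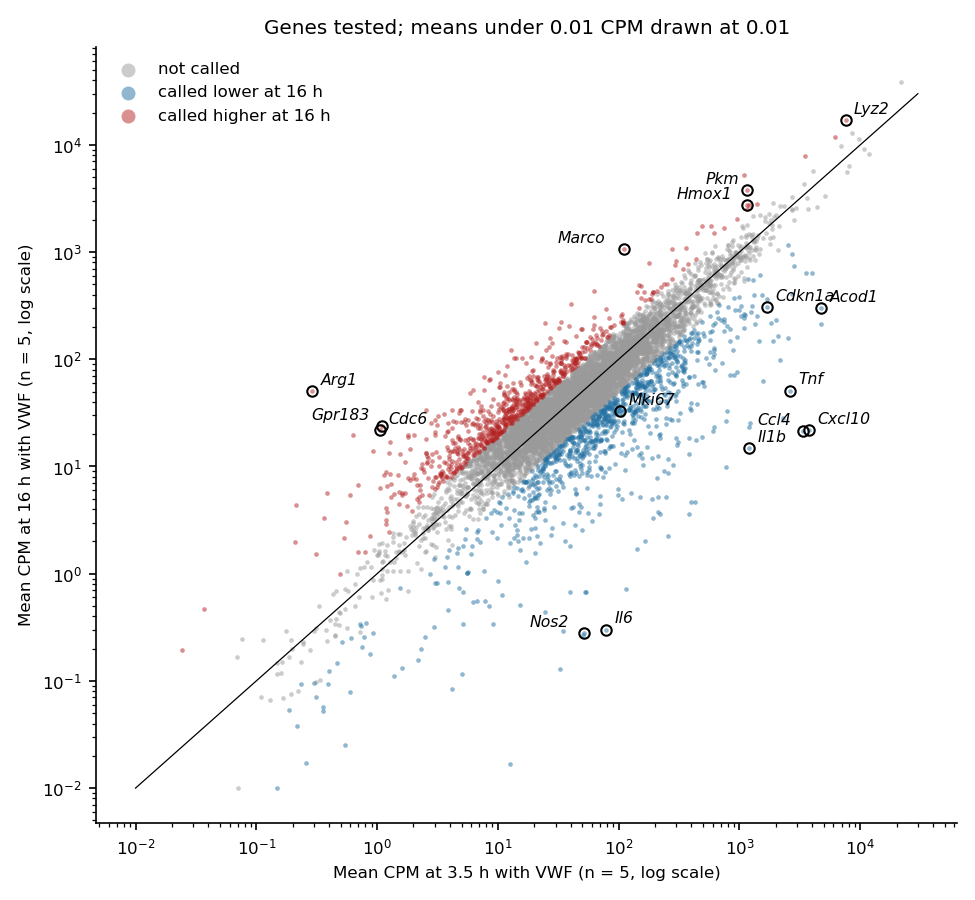
Mean CPM at 16 h (y axis, log scale) against mean CPM at 3.5 h (x axis, log scale) of VWF for the 7927 tested genes, 1 point per gene, with genes called higher in red, called lower in blue and not called in grey. The points furthest below the line of equal levels include Il6 and Nos2 (circled), and those furthest above it include Arg1, Gpr183 and Cdc6.

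The 10 genes with the largest falls by the naming rule held 5 that encode secreted inflammatory proteins, namely Il6, Il12b, Il1a, Cxcl10 and Ccl4. The others were Nos2, encoding inducible nitric oxide synthase, Ch25h, encoding cholesterol 25-hydroxylase, Hcar2, encoding a receptor for hydroxycarboxylic acids, Tmem200b and Shisa3. Tmem200b had 5 reads over the 5 cultures at 16 h against 3428 at 3.5 h. The 10 genes with the largest rises were Arg1, encoding arginase 1, Gpr183, encoding the receptor for oxidised cholesterols, Cdc6, a loader of the replicative helicase, the surface protein genes Ly6c2 and Ly6i, the lysophosphatidic acid receptor gene Lpar6, the cannabinoid receptor gene Cnr2, the scavenger receptor gene Marco, Ccdc125 and Zfp395. Among these the rise ranged from a log2 fold change of 3.32 for Marco to 7.55 for Arg1, with 4.50 for Gpr183 next below it.

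**Figure D2:**
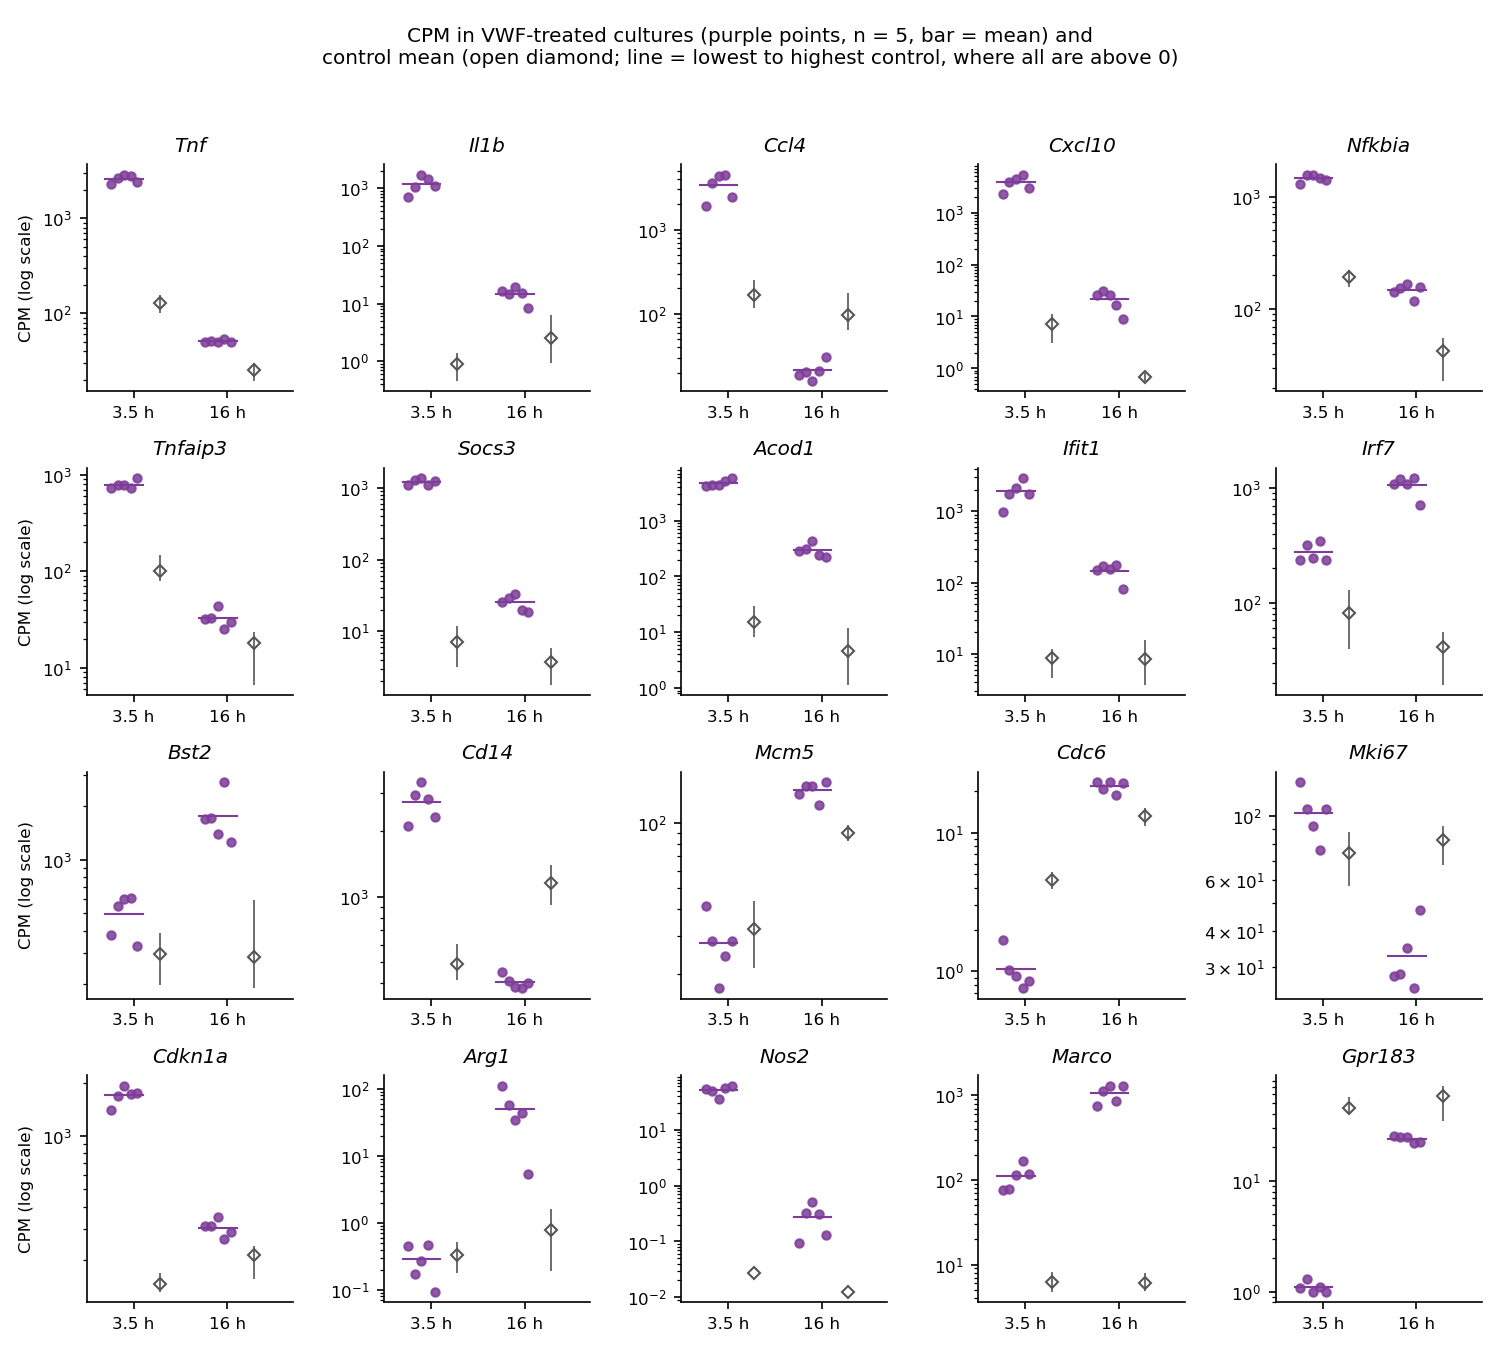
CPM (y axis, log scale, not starting at 0) of genes described in the text at 3.5 h and 16 h (x axis), with purple points for the 5 VWF cultures of each time, bars for their means, open diamonds for the mean of the 5 control cultures and lines from the lowest to the highest control where all are above 0. In every panel the VWF points at 16 h lie clear of those at 3.5 h, for example below them for Tnf and Nos2 and above them for Arg1 and Marco.

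Most of the tested inflammatory cytokine genes fell. Of 17 tested genes on that list of 23, 14 were lower at 16 h and 0 were higher, against 12.2% of all tested genes lower, and the median log2 fold change was −4.22. Of the 17, 8 passed the filter only through the 3.5 h group, and of the 9 that reached it at both times 6 were lower. Tnf, encoding tumour necrosis factor (Ensembl identifier ENSMUSG00000024401), was 2279, 2653, 2894, 2819.6 and 2435 CPM at 3.5 h and 50.2, 51.7, 49.6, 53.3 and 49.5 CPM at 16 h in replicates 1 to 5 (log2 fold change −5.63, SE 0.10, adjusted p = 2.36e-11). Every culture at 16 h was below every culture at 3.5 h. Il1b, encoding interleukin-1β, was 698, 1037, 1718, 1469 and 1089 CPM at 3.5 h and 16.5, 14.7, 19.4, 15.2 and 8.48 CPM at 16 h (log2 fold change −6.28, SE 0.31, adjusted p = 1.82e-08). Il6 was 47.6, 65.9, 82, 133 and 65.9 CPM at 3.5 h and 0.376, 0.340, 0.217, 0.404 and 0.169 CPM at 16 h (log2 fold change −7.95, SE 0.36, adjusted p = 9.28e-09), a fall from a clear signal to a trace that rests on 97 reads over the 5 cultures at 16 h. The groups did not overlap for either interleukin. Il1a (−6.77), Il12b (−7.24), the shared subunit of IL-12 and IL-23, and Il27 (−6.31) fell on the log2 scale by amounts of the same order. Ifnb1, the gene of interferon β itself, fell from 4.15 to 0.0833 CPM on average (log2 fold change −5.55), with 26 reads left over the 5 cultures at 16 h.

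The list also held inhibitory and growth-factor genes, and these were not spared. Il10, the anti-inflammatory cytokine gene, was 42.9, 73.7, 76.5, 60.0 and 49.2 CPM at 3.5 h and 2.79, 3.61, 2.63, 2.42 and 4.18 CPM at 16 h (log2 fold change −4.22, SE 0.21, adjusted p = 1.84e-08). Its groups did not overlap. Il1rn, which encodes the natural antagonist of the interleukin-1 receptor, was among the shallower falls, from 1033 to 255 CPM on average (log2 fold change −1.96). Csf1, the gene of M-CSF (−3.04), Lif (−3.50) and Osm (−2.92) fell on the log2 scale too. The 3 tested members not called were Ebi3 (−0.64), Il18 (−0.87) and Inhba (−1.06, adjusted p = 0.0831).

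Chemokine genes fell widely too, but not uniformly. Of 21 tested, 15 were lower, 1 was higher and 5 were not called, with a median log2 fold change of −3.12, and of the 15 that passed at both times 10 were lower. Ccl3, whose product attracts monocytes and T cells, was 1516, 2269.9, 2673, 2899 and 2195 CPM at 3.5 h and 21.3, 29.6, 29.1, 24.8 and 38.2 CPM at 16 h (log2 fold change −6.28, SE 0.23, adjusted p = 2.47e-09). Cxcl10, an interferon-responsive attractant of T cells, was 2284, 3928, 4336, 5362 and 3011 CPM at 3.5 h and 25.8, 31.6, 26.4, 16.4 and 9.10 CPM at 16 h (log2 fold change −7.38, SE 0.41, adjusted p = 4.9e-08). All 5 cultures at 16 h lay below all 5 at 3.5 h for both genes. Reads of the neighbouring gene Art3 could enter this count, since its exons overlap 5.91% of the Cxcl10 exons. The neutrophil attractants Cxcl1 (−5.82), Cxcl2 (−5.63) and Cxcl3 (−4.40) fell on the log2 scale, as did Ccl4 (−7.24) and Ccl7 (−3.46). Ccl2, the main attractant of monocytes, fell less steeply, at 507, 595, 563, 609 and 383 CPM at 3.5 h and 151, 112, 71.7, 91.1 and 82.6 CPM at 16 h (log2 fold change −2.33, SE 0.21, adjusted p = 2.19e-06). The Ccl2 groups did not overlap.

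Ccl5 stood apart from these. It was 629, 839, 1014, 1104 and 728 CPM at 3.5 h and 1010.1, 1296, 1272, 1391 and 666 CPM at 16 h (log2 fold change 0.44, SE 0.21, adjusted p = 0.0784). The groups overlapped, the lowest value at 16 h was in replicate 5, and no change was called. Pf4 (0.02, adjusted p = 0.944), encoding platelet factor 4, and Cxcl16 (−0.38, adjusted p = 0.0654) were not called either. The rise was in Cxcl14 (log2 fold change 1.62), from 33.1 to 98.2 CPM on average.

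Most receptors for chemoattractants were not called. Of 11 tested, 4 were higher at 16 h (Cx3cr1 1.93, Cxcr4 1.27, Fpr1 1.72 and Fpr2 1.55 on the log2 scale) and 1 was lower, the chemerin-binding receptor gene Ccrl2 (−4.82). Fpr1 and Fpr2 encode receptors for formylated peptides. Cxcr4, the receptor for CXCL12, was 43, 45.8, 35.8, 25.4 and 30.7 CPM at 3.5 h and 89.7, 83, 80.0, 124 and 43.9 CPM at 16 h (log2 fold change 1.27, SE 0.25, adjusted p = 0.000948). Here the groups overlapped although the gene was called.

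Among 19 tested genes of Toll-like receptors and their adaptors, 2 were higher and 6 were lower, against 9.15% and 12.2% of all tested genes. Of the 19, 3 passed the filter only through the 3.5 h group, and the 16 that passed at both times held 2 higher and 4 lower. Tlr2, which recognises bacterial lipoproteins, fell from 2507 to 159 CPM on average (log2 fold change −3.93), while Tlr4, the LPS receptor, was 16.1, 16.4, 13, 15.4 and 21.8 CPM at 3.5 h and 34.5, 39.1, 43.3, 31.1 and 43.4 CPM at 16 h (log2 fold change 1.26, SE 0.14, adjusted p = 1.46e-05). The Tlr4 groups did not overlap. Cd14, the co-receptor that hands LPS to TLR4, was 2129, 2938, 3382, 2818 and 2335 CPM at 3.5 h and 447, 410.1, 384, 378 and 400.4 CPM at 16 h (log2 fold change −2.70, SE 0.12, adjusted p = 1.08e-08). Cd14 and Tlr4 therefore moved in opposite directions between the times. The other called genes were Tlr13, which rose (1.15), and the adaptor or signalling genes Myd88 (−1.28), Tirap (−1.57), Irak2 (−1.95) and Traf6 (−1.25), which fell.

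The genes of NF-κB and its feedback inhibitors fell together. Of 18 tested, 17 were lower and 0 higher, with a median log2 fold change of −2.87, and the exception was Cyld (−0.49), encoding a deubiquitinase. All 15 that passed the filter at both times were lower. The subunit genes ranged from −1.59 for Rela to −3.49 for Nfkb1. Nfkbia, encoding the inhibitor IκBα, was 1286, 1558, 1566, 1459 and 1396 CPM at 3.5 h and 143, 155, 169, 117 and 156 CPM at 16 h (log2 fold change −3.24, SE 0.11, adjusted p = 1.32e-09). Tnfaip3, encoding the ubiquitin-editing inhibitor A20, was 728, 784, 776, 722 and 917 CPM at 3.5 h and 31.6, 32.7, 43.8, 25.2 and 29.5 CPM at 16 h (log2 fold change −4.54, SE 0.15, adjusted p = 1.61e-09). The 16 h cultures were below all 3.5 h cultures for both inhibitors. Tnfaip2, a target gene of NF-κB, was 4476, 4760.2, 4936, 4216 and 5098 CPM at 3.5 h and 159.5, 193, 266, 154 and 288 CPM at 16 h (log2 fold change −4.42, SE 0.20, adjusted p = 9.47e-09). Its groups did not overlap.

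The 200 bases before the start of Tnfaip3 are printed because they hold the letters of an NF-κB motif, GGANTTTCC, searched on both strands, while the gene was among the steeply falling inhibitors. The match, in capitals, begins 24 bases before the start. The stretch is chr10:19015411-19015610 on the minus strand of GRCm38.p6, from RefSeq, written 5′ to 3′ along the gene.
Tnfaip3: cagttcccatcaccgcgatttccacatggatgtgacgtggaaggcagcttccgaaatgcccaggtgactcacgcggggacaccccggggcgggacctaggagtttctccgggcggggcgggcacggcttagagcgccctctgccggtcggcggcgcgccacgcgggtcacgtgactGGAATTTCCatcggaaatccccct
Of the 6159 tested genes with a promoter window, a stretch of 300 bases from 250 before to 50 after the start, 1.80% held this motif, against 4.51% of the genes called lower and 1.22% of those called higher. On the list of NF-κB subunits and inhibitors, 4 of 14 lower genes with a window (28.6%) held it, and on the chemokine list 4 of 11 (36.4%). A match of letters is a description and does not show that a factor binds there.

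Other negative regulators also changed. Of 6 tested SOCS genes, inhibitors of cytokine receptor signalling, 4 were lower and 0 higher, 3 of the 6 having passed the filter only through the 3.5 h group. Socs3, which acts on IL-6 family receptors, was 1109, 1297, 1360.3, 1109 and 1253 CPM at 3.5 h and 25.5, 29, 33.4, 19.7 and 18.5 CPM at 16 h (log2 fold change −5.55, SE 0.18, adjusted p = 1.47e-09). Cish (−6.23) and Socs1 (−4.42) also fell on the log2 scale. The Socs3 groups did not overlap.

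Of 7 tested dual-specificity phosphatases, which inactivate MAP kinases, 5 were lower and 1 was higher. Of the 7, 3 passed the filter only through the 3.5 h group. The 4 that passed at both times held 2 lower and 1 higher. Dusp2 was 125, 214, 204, 169 and 119 CPM at 3.5 h and 1.99, 1.72, 1.37, 2.50 and 2.59 CPM at 16 h (log2 fold change −6.30, SE 0.25, adjusted p = 4.65e-09). Dusp6, which acts on ERK, was 13.4, 10.0, 10.7, 19.9 and 14.3 CPM at 3.5 h and 106, 102, 96.4, 109 and 101 CPM at 16 h (log2 fold change 2.97, SE 0.18, adjusted p = 7.92e-08). Thus Dusp2 fell and Dusp6 rose without overlap of their groups. Control cultures had a mean Dusp6 level of 99.6 CPM at 3.5 h and 73 CPM at 16 h, so the VWF level at 3.5 h was the low value of these groups.

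Factors that destabilise inflammatory mRNA were all called, 4 lower and 2 higher of 6. Of the 6, 2 passed the filter only through the 3.5 h group and 1 only through the 16 h group. The 3 that passed at both times held 2 lower and 1 higher. Zfp36, encoding tristetraprolin, was 514, 648, 656, 713 and 624 CPM at 3.5 h and 58.5, 75, 55.4, 95.6 and 111 CPM at 16 h (log2 fold change −2.94, SE 0.20, adjusted p = 1.97e-07). Its relative Zfp36l2 was 54.5, 36, 43.5, 52.4 and 62.9 CPM at 3.5 h and 180.4, 184, 217, 158 and 213 CPM at 16 h (log2 fold change 1.98, SE 0.15, adjusted p = 6.29e-07). The paralogs moved oppositely and their groups did not overlap. Zfp36l1 rose with Zfp36l2 (1.95), while Zc3h12a (−3.06), encoding the RNase Regnase-1, Zc3h12c (−3.05) and Rc3h1 (−1.55) fell.

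Of 17 tested immediate early transcription factor genes, which respond to stimuli without new protein synthesis, 10 were lower and 1 higher. Of the 17, 3 passed the filter only through the 3.5 h group, and the 14 that passed at both times held 7 lower and 1 higher. Junb (−2.61), Fosl2 (−2.10) and Maff (−4.36) fell on the log2 scale, whereas Jun rose (1.03). Fos was 76.4, 64.3, 53.9, 83.6 and 95.6 CPM at 3.5 h and 97.5, 109.6, 105, 129.8 and 142 CPM at 16 h (log2 fold change 0.69, SE 0.16, adjusted p = 0.0027). Its groups did not overlap, but the change was under 2-fold and was not called. 

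Interferon-responsive genes did not move as a block. Of 36 tested genes on the type I interferon list, 13 were lower, 5 higher and 18 not called, with a median log2 fold change of −0.34. Ifit1, whose product binds foreign RNA ends, was 967, 1771, 2118, 2919.7 and 1764 CPM at 3.5 h and 151, 169.5, 158, 175 and 81.9 CPM at 16 h (log2 fold change −3.64, SE 0.30, adjusted p = 9.68e-07). Rsad2, encoding the antiviral enzyme viperin, was 1316, 1809, 2063, 3143 and 2459.6 CPM at 3.5 h and 110.3, 124, 131, 72.9 and 55.8 CPM at 16 h (log2 fold change −4.39, SE 0.31, adjusted p = 2.78e-07). Both fell without overlap of the groups, with replicate 5 lowest at 16 h for Ifit1. Mx1 (−3.14), Mx2 (−4.01), Cmpk2 (−3.61) and Ifih1 (−2.44), an RNA sensor, also fell.

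Irf7, encoding the transcription factor that amplifies interferon production, was 238, 318, 248, 345 and 238 CPM at 3.5 h and 1082, 1192, 1082, 1218 and 716 CPM at 16 h (log2 fold change 1.98, SE 0.17, adjusted p = 1.29e-06). Bst2, encoding tetherin, which holds enveloped virus particles at the cell surface, was 376, 547, 604, 609 and 327 CPM at 3.5 h and 1693, 1714, 1390.1, 2735 and 1257 CPM at 16 h (log2 fold change 1.89, SE 0.24, adjusted p = 3.59e-05). Both rose in every comparison of a 16 h with a 3.5 h culture, and replicate 5 was the lowest 16 h culture for both. The other risers were Oas3 (1.33), Zbp1 (1.06) and Ifi44 (1.05). Isg15 (−0.78), Usp18 (−0.77) and Stat2 (−0.72) did not pass the fold threshold.

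The promoters of Rsad2 and Bst2 are printed because these genes moved oppositely while both hold the letters of an interferon-stimulated response element, GAAANNGAA, in capitals, which reads as TTCNNTTTC on the other strand. Rsad2 (chr12:26456453-26456652, minus strand) has a match that begins 119 bases before the start, and Bst2 (chr8:71537473-71537672, minus strand) has 2 overlapping matches that begin 130 and 124 bases before it. Both stretches are the 200 bases before the RefSeq start in GRCm38.p6.
Rsad2: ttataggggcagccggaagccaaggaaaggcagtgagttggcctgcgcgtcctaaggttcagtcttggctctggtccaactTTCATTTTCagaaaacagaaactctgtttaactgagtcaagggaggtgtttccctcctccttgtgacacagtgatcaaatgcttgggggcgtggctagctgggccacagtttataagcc
Bst2: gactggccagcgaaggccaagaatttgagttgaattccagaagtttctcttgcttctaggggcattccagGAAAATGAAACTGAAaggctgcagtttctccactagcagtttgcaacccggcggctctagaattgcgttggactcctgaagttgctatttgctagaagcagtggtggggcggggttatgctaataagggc
The motif was in the windows of 9.35% of tested genes, 9.39% of those called higher and 12.6% of those called lower. On the interferon list it was in 3 of 4 higher genes and in 7 of 10 lower genes (70.0%) with a window.

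The interferon-inducible GTPases, which attack vacuoles that hold microbes, had falls and no rise among those called. Of 11 tested, 9 were lower and 0 higher, but 4 passed the filter only through the 3.5 h group, and of the 7 that passed at both times 6 were lower. Gbp5 was 599.5, 703, 758, 888 and 937 CPM at 3.5 h and 9.50, 10.0, 14.6, 6.08 and 8.87 CPM at 16 h (log2 fold change −6.25, SE 0.25, adjusted p = 4.49e-09). Its groups did not overlap. Gbp3 (−2.54), Gbp2 (−1.80) and Irgm2 (−1.89) fell on the log2 scale, and Gbp6 and Gbp9 were not called. GBP and IRG genes are close paralogs, whose shares of reads depend on the authors' counting.

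Antigen presentation separated into peptide presentation and costimulation. Of 16 tested genes of MHC class I processing only Psmb8 was called, higher (1.09). H2-K1 was 2102, 2646, 2496, 2434 and 1911 CPM at 3.5 h and 2639, 2921, 2638, 2977 and 2285 CPM at 16 h (log2 fold change 0.27, SE 0.11, adjusted p = 0.0513). The H2-K1 groups overlapped. Of 6 tested MHC class II genes 0 were called by edgeR or DESeq2, 3 had an unadjusted p under 0.05, and the log2 fold changes lay between −0.83 and 0.96. Of 8 tested costimulatory and checkpoint genes, 6 were lower and 0 higher, with 3 lower of the 5 that passed the filter at both times. Cd40, the receptor for T cell help, was 580.2, 763, 936, 921 and 666 CPM at 3.5 h and 25.2, 27.8, 28.1, 27.1 and 24.9 CPM at 16 h (log2 fold change −4.80, SE 0.14, adjusted p = 7.34e-10). Its groups did not overlap. Cd83 (−6.46), Icam1 (−4.59), Icosl (−3.93), Cd86 (−3.34) and Cd274 (−2.56), encoding PD-L1, fell too.

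DNA replication genes rose with few exceptions. Of 27 tested, 26 were higher and 0 lower at 16 h, against 9.15% of all tested genes higher, with a median log2 fold change of 1.98. While 10 of the 27 passed the filter only through the 16 h group, 16 of the 17 that passed at both times were higher. Mcm5, a subunit of the replicative helicase, was 41.3, 28.3, 17.1, 24.3 and 28.5 CPM at 3.5 h and 137, 148, 148, 120.4 and 155 CPM at 16 h (log2 fold change 2.38, SE 0.21, adjusted p = 1.67e-06). Cdc6, which loads that helicase, was 1.68, 1.03, 0.929, 0.753 and 0.849 CPM at 3.5 h and 23.1, 20.6, 23.3, 18.7 and 23 CPM at 16 h (log2 fold change 4.41, SE 0.22, adjusted p = 1.96e-08). Ccne2, encoding cyclin E2, was 4.40, 2.23, 2.35, 3.22 and 2.78 CPM at 3.5 h and 28.2, 25.6, 24.8, 25 and 32.1 CPM at 16 h (log2 fold change 3.22, SE 0.20, adjusted p = 1.03e-07). All 3 were higher in every 16 h culture than in every 3.5 h culture. The exons of Ints8 overlap 17.4% of the Ccne2 exons. The exception on the list was Pcna (0.32).

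The promoters of Cdc6 and Mcm7 are printed as examples of the rising group that hold the letters of an E2F motif, TTTCCCGC or TTTGGCGC on either strand, in capitals. Cdc6 (chr11:98907951-98908150, plus strand) has it from 138 bases and Mcm7 (chr5:138171884-138172083, minus strand) from 165 bases before the start, in the 200 bases taken from RefSeq for GRCm38.p6.
Cdc6: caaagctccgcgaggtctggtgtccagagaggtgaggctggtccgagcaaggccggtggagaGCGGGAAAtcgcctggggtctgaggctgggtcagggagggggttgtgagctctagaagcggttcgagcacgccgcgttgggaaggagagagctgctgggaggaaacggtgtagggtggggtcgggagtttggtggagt
Mcm7: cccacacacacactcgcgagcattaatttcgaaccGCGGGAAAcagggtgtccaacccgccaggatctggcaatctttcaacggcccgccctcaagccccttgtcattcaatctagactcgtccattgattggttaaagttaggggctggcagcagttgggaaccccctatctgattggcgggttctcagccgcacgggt
The motif was in 9 of 21 higher DNA replication genes with a window (42.9%), in 3.72% of all tested genes, in 6.26% of those called higher and in 2.74% of those called lower.

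Mitosis genes did not follow. Of 19 tested, 2 were higher, 4 lower and 13 not called, with a median log2 fold change of −0.25. Over all tested genes 9.15% were higher and 12.2% lower. Mki67, a marker of dividing cells, was 131, 106, 92.1, 76.3 and 106 CPM at 3.5 h and 28, 28.4, 35, 25.4 and 47.5 CPM at 16 h (log2 fold change −1.59, SE 0.19, adjusted p = 2.32e-05). It fell with Ccnb2 (−1.60), Cenpa (−1.38) and Ube2c (−1.08), while Top2a (−0.20), Cdk1 (0.09) and Ccnb1 (−0.55) were not called. The Mki67 groups did not overlap. The 2 risers, which passed the filter only through the 16 h group, were Bub1b (1.02), a spindle checkpoint kinase, and Mybl2 (2.23), 25.9% of whose exon windows of 100 bases also occur in Gm3320. The CHR motif of G2/M genes, TTTGAA, was in 11 of 16 mitosis genes with a window (68.8%) and in 13.8% of tested genes.

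**Figure D3:**
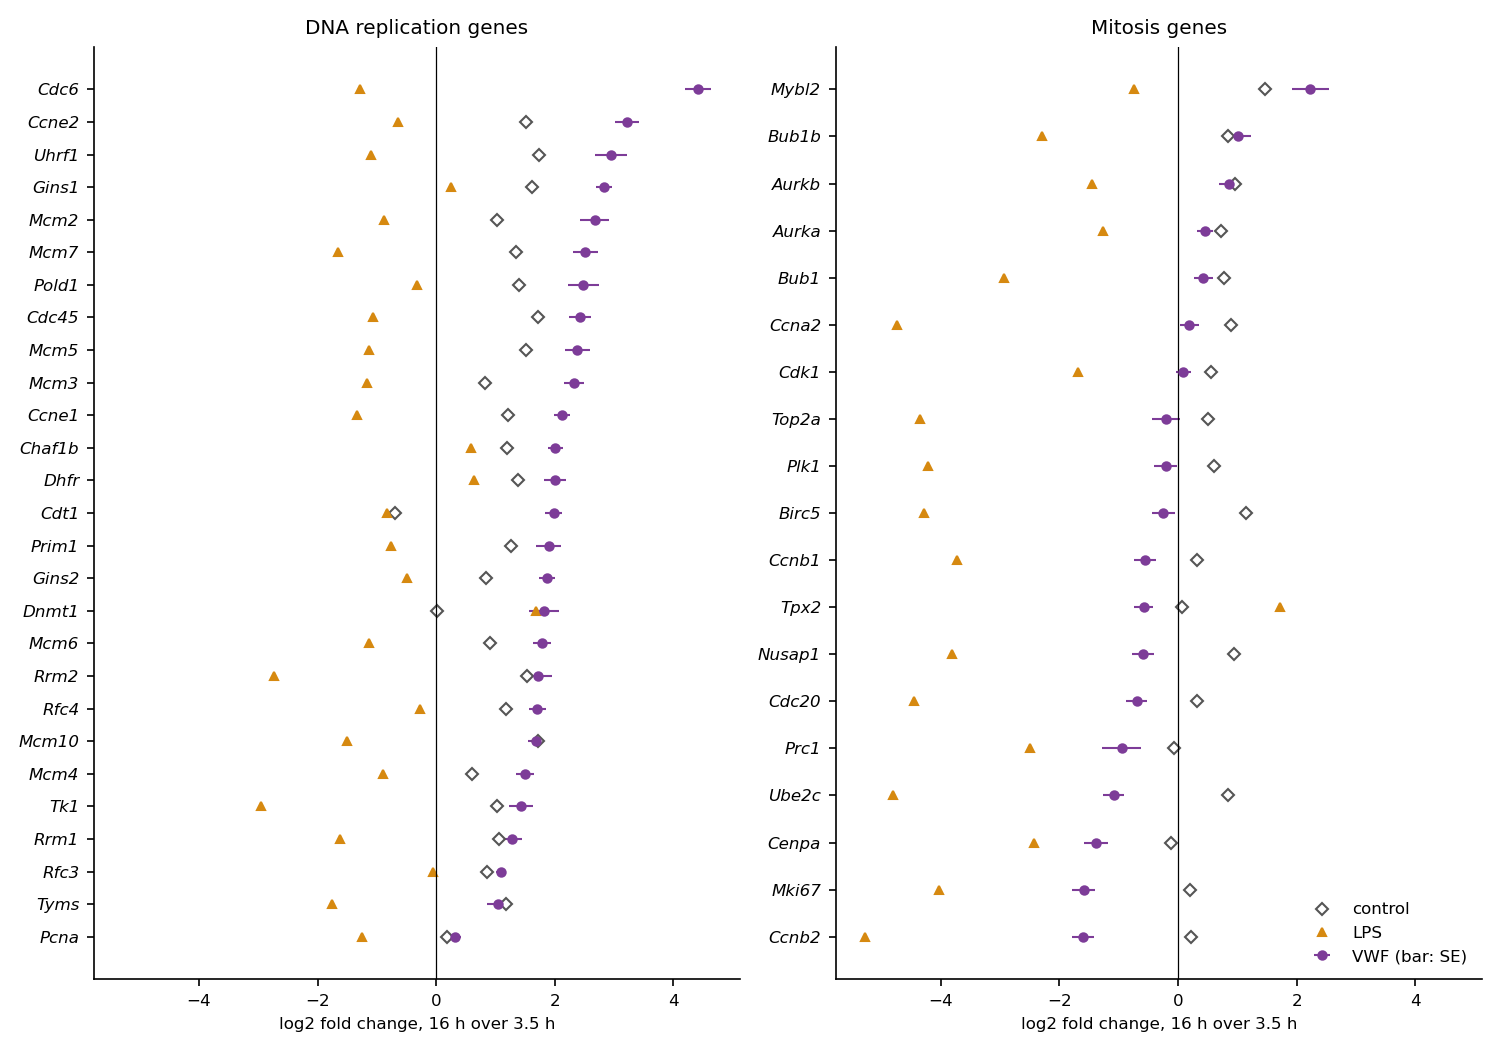
Log2 fold change between 16 h and 3.5 h (x axis) of each tested DNA replication gene (left) and mitosis gene (right), with purple points and SE bars for VWF, open diamonds for control and triangles for LPS cultures. With VWF all replication genes lie above 0 and mitosis genes lie on both sides of it, whereas with LPS most of both sets lie below 0.

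Among G1 regulators 6 of 13 tested genes were higher and 2 lower. Of the 13, 3 passed the filter only through the 16 h group and 1 only through the 3.5 h group. The 9 that passed at both times held 3 higher and 1 lower. E2f1, the factor that starts the replication programme, was 25.5, 24.9, 24.1, 22.3 and 19.6 CPM at 3.5 h and 93.4, 104, 102, 111 and 102 CPM at 16 h (log2 fold change 2.19, SE 0.09, adjusted p = 6.17e-09). E2f2 (3.27), Cdk2 (1.49) and Ccnd3 (1.31) rose as well. Cdkn1a, encoding the CDK inhibitor p21, was 1395, 1682, 1921, 1731 and 1744 CPM at 3.5 h and 311, 309, 351, 264 and 288 CPM at 16 h (log2 fold change −2.42, SE 0.10, adjusted p = 5.94e-09). Neither pair of groups overlapped. Ccnd1 was 63.6, 37.8, 27, 31 and 64.1 CPM at 3.5 h and 107, 109, 142, 43.9 and 97.1 CPM at 16 h (log2 fold change 1.20, SE 0.33, adjusted p = 0.00714), with overlapping groups, and Cdk6 fell (−2.18). Exons of LTO1 overlap 23.4% of the Ccnd1 exons.

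Glycolysis genes changed in both directions. Of 21 tested genes, 10 were higher and 4 lower, and the median log2 fold change was 0.88. Pkm, encoding pyruvate kinase, was 1308, 1163, 1046, 1193 and 1087 CPM at 3.5 h and 4079, 3890.0, 3708, 3541 and 3542 CPM at 16 h (log2 fold change 1.74, SE 0.10, adjusted p = 5.32e-08). Ldha, which makes lactate, was 717, 747, 823, 841 and 630.4 CPM at 3.5 h and 1985, 1730.2, 1410.4, 1808 and 1463 CPM at 16 h (log2 fold change 1.21, SE 0.12, adjusted p = 4.76e-06). The groups of both did not overlap. Tpi1 (1.42), Gapdh (1.25) and Eno1 (1.62) of the lower pathway rose with them. The fallers were the hexose transporter Slc2a6, Hk2, Pfkp and Pfkfb3 (−2.32). Hk2, encoding hexokinase 2, was 108, 98.2, 113, 129 and 149.8 CPM at 3.5 h and 59.2, 53.8, 60.0, 41.8 and 36.3 CPM at 16 h (log2 fold change −1.20, SE 0.16, adjusted p = 4.87e-05), and Slc2a6 was 271, 319.8, 346, 360.5 and 309.9 CPM at 3.5 h and 25.1, 29.1, 37, 29.6 and 35.8 CPM at 16 h (log2 fold change −3.31, SE 0.12, adjusted p = 2.63e-09). Each lay lower in all 16 h cultures.

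Hif1a, the hypoxia factor gene, was 282, 284, 298, 297 and 298 CPM at 3.5 h and 125, 110.0, 105, 118 and 80.5 CPM at 16 h (log2 fold change −1.38, SE 0.11, adjusted p = 7.83e-07). The HIF-1 list of 17 tested genes, its targets and Hif1a itself, held 4 higher and 4 lower, Hif1a among the lower. Of 21 tested genes of the tricarboxylic acid cycle and itaconate list, 1 was called. That was Acod1, which makes itaconate, at 4273, 4285, 4413, 5092 and 5755 CPM at 3.5 h and 289, 306, 439, 246 and 223 CPM at 16 h (log2 fold change −3.94, SE 0.20, adjusted p = 1.95e-08). Its groups did not overlap. Of 36 respiratory chain and ATP synthase genes, 0 passed both thresholds in edgeR or DESeq2, 27 had an unadjusted p under 0.05, and their median was 0.47.

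Nos2 and Arg1, whose enzymes compete for arginine, moved oppositely. Nos2, which makes nitric oxide from arginine, was 54.6, 49.3, 36.1, 56 and 62.1 CPM at 3.5 h and 0.0941, 0.328, 0.516, 0.316 and 0.131 CPM at 16 h (log2 fold change −7.47, SE 0.34, adjusted p = 1.12e-08). Arg1, which makes urea and ornithine from it, was 0.451, 0.172, 0.268, 0.470 and 0.0928 CPM at 3.5 h and 112, 58, 35, 43.4 and 5.46 CPM at 16 h (log2 fold change 7.55, SE 0.83, adjusted p = 9.91e-06). Nos2 was lower and Arg1 higher in each 16 h culture than in each 3.5 h culture, with replicate 5 the lowest of the 16 h cultures for Arg1. Ass1, which rebuilds arginine from citrulline, was 48.6, 46.1, 54.4, 91.3 and 73.1 CPM at 3.5 h and 440.1, 411, 555, 479 and 287 CPM at 16 h (log2 fold change 2.85, SE 0.23, adjusted p = 8.39e-07), but 33.1% of its windows are shared with Gm5424. The arginine transporter Slc7a2 (−3.21), Gch1 (−2.26), which makes the cofactor of nitric oxide synthase, and Odc1 (−2.12), which uses ornithine, fell.

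Of 16 tested NRF2 antioxidant genes, 2 were higher and 4 lower. Hmox1, encoding haem oxygenase 1, was 1014, 1271, 1072, 1253 and 1166 CPM at 3.5 h and 2971, 2964, 3090.3, 2878 and 1777 CPM at 16 h (log2 fold change 1.30, SE 0.15, adjusted p = 1.51e-05). Slc7a11, the cystine importer, was 282, 246, 308, 309 and 392 CPM at 3.5 h and 15, 14.9, 26.8, 14.2 and 14.1 CPM at 16 h (log2 fold change −4.12, SE 0.21, adjusted p = 2.62e-08). They moved oppositely without overlap, Hmox1 with its lowest 16 h value in replicate 5. Prdx1 rose (1.22), and Nfe2l2 (−1.47), Txnrd1 (−2.07) and Sqstm1 (−2.60) fell. Of 18 tested stress response genes 6 were higher, among them the folding factors Sdf2l1 (2.03) and Pdia4 (1.49), and 3 were lower. Of 11 tested metallothionein and iron genes 1 was higher, Lcn2 (1.56), and 3 were lower, including the zinc and iron importer Slc39a14 (−3.42).

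Sterol metabolism showed single large changes. Ch25h, which makes 25-hydroxycholesterol, was 282, 347, 469, 506 and 312 CPM at 3.5 h and 4.56, 3.28, 3.63, 5.85 and 0.713 CPM at 16 h (log2 fold change −6.67, SE 0.47, adjusted p = 2.97e-07). Gpr183, the receptor for its further product 7α,25-dihydroxycholesterol, was 1.08, 1.31, 0.991, 1.11 and 0.994 CPM at 3.5 h and 25.3, 24.6, 24.9, 22.1 and 22.4 CPM at 16 h (log2 fold change 4.50, SE 0.12, adjusted p = 2.48e-10). Ch25h fell and Gpr183 rose without overlap. Control cultures had mean Gpr183 levels of 45.8 CPM at 3.5 h and 58 CPM at 16 h. Scd2, a fatty acid desaturase, was 10.2, 5.90, 7.25, 5.95 and 8.92 CPM at 3.5 h and 70.6, 60.9, 84.5, 48.8 and 76.8 CPM at 16 h (log2 fold change 3.20, SE 0.20, adjusted p = 1.44e-07). Its 16 h cultures were all higher. Of 19 cholesterol synthesis genes 3 were higher and 0 lower, of 8 fatty acid synthesis genes 2 were higher, and of 15 eicosanoid genes 3 were lower, led by Ptgs2 (−5.51), encoding cyclooxygenase 2. Among genes that passed the filter at both times, 1 of 17 cholesterol and 1 of 6 fatty acid genes was higher, against 6.24% of all such genes. Of 13 such eicosanoid genes 2 were lower, against 9.06%.

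Surface receptors for uptake changed gene by gene. Of 22 tested scavenger and phagocytic receptors, 2 were higher and 8 lower, against 9.15% and 12.2% of all tested genes. Of the 22, 3 passed the filter only through the 3.5 h group, and the 19 that passed at both times held 2 higher and 5 lower. Marco, which binds bacteria and particles, was 77, 78.4, 115, 168 and 116 CPM at 3.5 h and 754, 1113, 1299.9, 867 and 1305 CPM at 16 h (log2 fold change 3.32, SE 0.24, adjusted p = 4.31e-07). Mrc1, the mannose receptor, was 564, 545, 538, 546 and 671 CPM at 3.5 h and 105, 114, 111, 62.8 and 189.6 CPM at 16 h (log2 fold change −2.25, SE 0.23, adjusted p = 6.87e-06). Marco rose and Mrc1 fell without overlap. Mertk, which takes up dying cells, rose (1.76), while Olr1 (−6.34), Clec4e (−2.40) and Itgav (−2.39) fell. Of 6 Fcγ receptor list genes, Fcgr1 rose, at 151, 198, 165, 218 and 155 CPM at 3.5 h and 863, 932, 859.9, 789.5 and 534 CPM at 16 h (log2 fold change 2.22, SE 0.16, adjusted p = 4.3e-07), and Fcgr2b (−1.51), the inhibitory receptor, and Fcgrt (−1.54) fell. Fcgr1 was lowest at 16 h in replicate 5, which was still above all 3.5 h cultures. Of the 7 tested alternative activation markers 6 were lower, and Arg1 was the member that rose. However, 4 of the 7 passed the filter only through the 3.5 h group and 1 only through the 16 h group. The 2 that passed at both times were lower.

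Among coagulation, matrix and complement genes, the called changes went in both directions. Of 12 coagulation and fibrinolysis genes, 6 were lower and 0 higher, among them Plaur (−2.51), the urokinase receptor, and Thbs1 (−1.29). Of the 12, 2 passed the filter only through the 3.5 h group, and 4 of the 10 that passed at both times were lower. Of 13 matrix metalloproteinase list genes, 4 were lower, led by Mmp13 (−4.67), and Mmp9 was higher (1.86). Of the 13, 3 passed only through the 3.5 h group, and the 10 that passed at both times held 2 lower and 1 higher. Of 11 complement genes 2 were higher, C1ra (1.16) and Cfb (3.19), both with shared sequence (35.6% and 80.9% of windows), and 1 was lower.

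Lineage and survival genes were also in motion. Of 14 tested macrophage lineage factors 2 were higher and 6 lower. Maf rose (2.04), while Cebpb (−2.10), Zeb2 (−1.58) and Spi1 (−1.01), encoding PU.1, fell. Exons of Tmem189 overlap 20.7% of the Cebpb exons. Of 22 cell death genes 8 were lower and 0 higher, including the inflammasome sensor Nlrp3 (−4.77), Cflar (−2.93), which blocks caspase 8, and Bcl2a1d (−4.21), 54.5% of whose windows are shared with paralogs. Of 48 cytosolic ribosomal protein genes, 0 passed both thresholds in edgeR or DESeq2 and 5 had an unadjusted p under 0.05, with log2 fold changes between −0.42 and 0.38. Of 32 lysosomal genes 3 were higher and 1 lower, and of 31 proteasome genes 1 was higher. Over all tested genes 9.15% were higher and 12.2% lower.

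**Figure D4:**
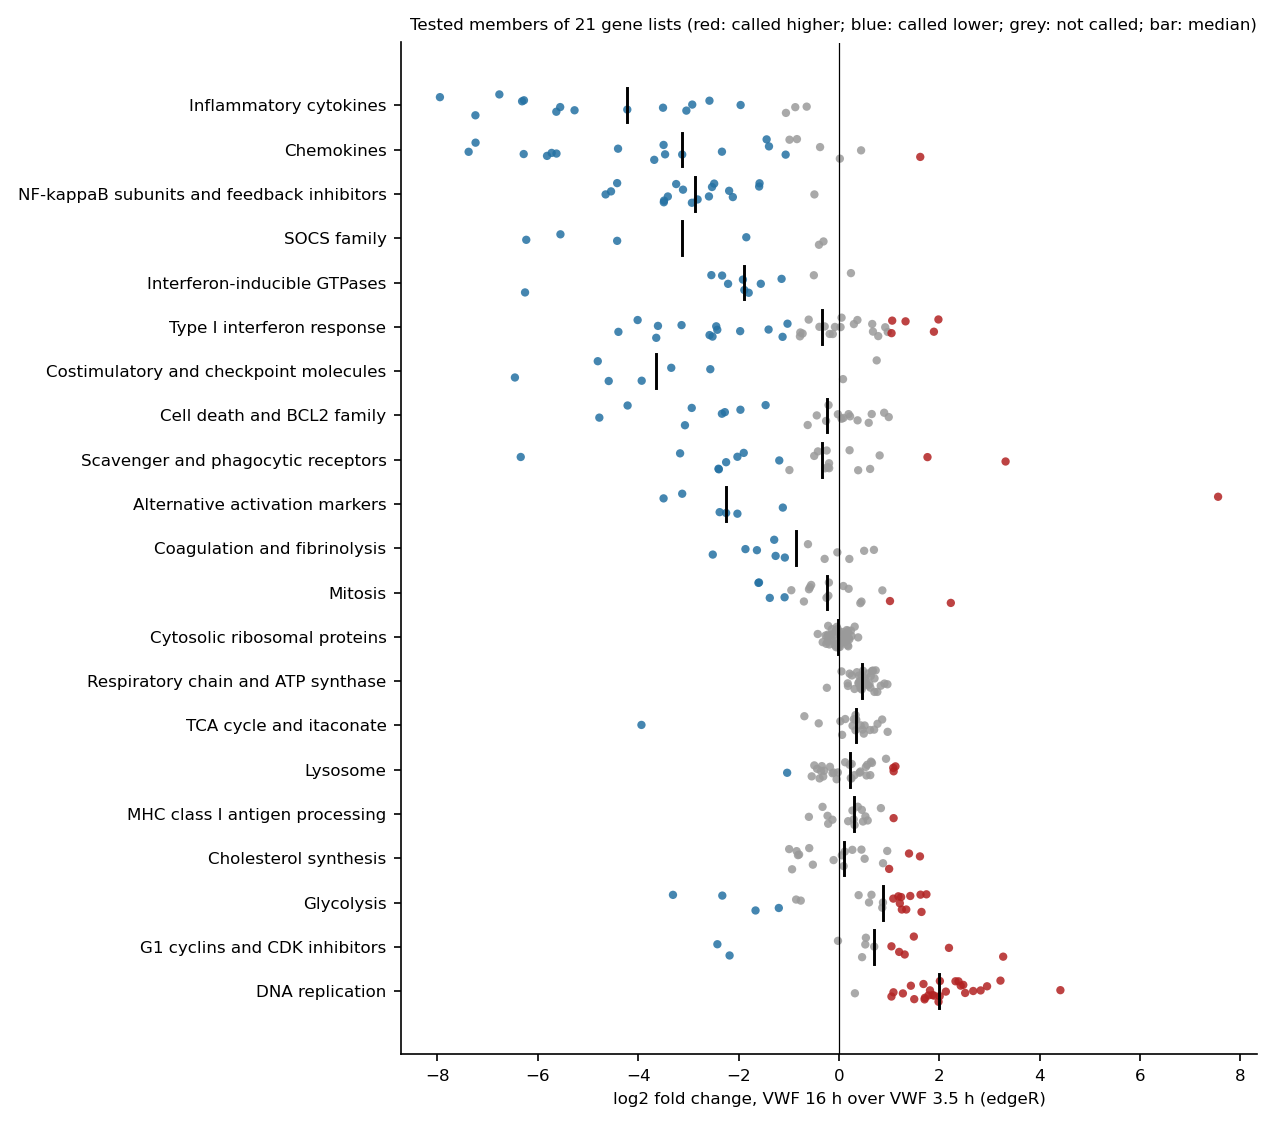
Log2 fold change between VWF 16 h and VWF 3.5 h (x axis) of the tested members of gene lists (y axis), each point a gene, with called higher in red, called lower in blue, not called in grey and a bar at the list's median. Cytokine (median −4.22) and costimulatory genes lie furthest to the left, and DNA replication genes (median 1.98) furthest to the right.

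The same interval in control cultures asks how much of the change also occurred without VWF. Of 8333 tested genes, 757 (9.08%) changed between control 3.5 h and control 16 h, 333 (4.00%) higher and 424 (5.09%) lower. Of the genes tested in both comparisons, 155 were higher in both, which is 23.2% of the VWF risers and 56.8% of the control risers, and 210 were lower in both, which is 26.2% and 58.5%. The difference between the VWF change and the control change passed the test in 1166 of 8660 genes (13.5%), 493 (5.69%) with a VWF change more positive and 673 (7.77%) more negative. Scaling by total count alone turned this balance to 610 more positive and 569 more negative.

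**Figure D5:**
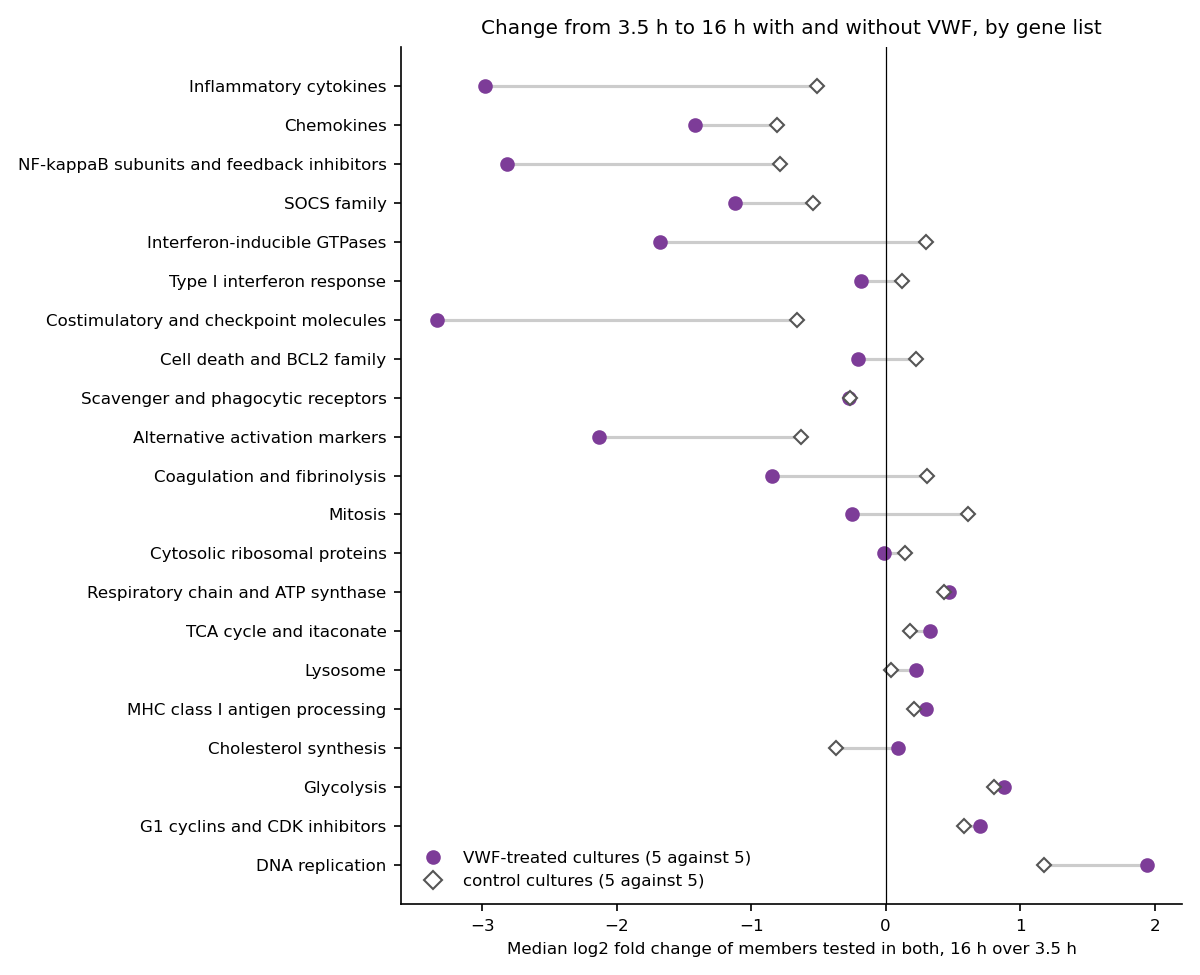
Median log2 fold change between 16 h and 3.5 h (x axis) over the members of each gene list (y axis) tested both with VWF (purple points) and without it (open diamonds), each from 5 against 5 cultures. The medians lie far apart for inflammatory cytokines (−2.98 with VWF and −0.51 in controls) and close together for the respiratory chain (0.47 and 0.44).

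Most tested genes of the inflammatory groups differed from the control change. A gene entered this test by reaching 10 TPM in 1 culture of any VWF or control group. The filter therefore favours a more negative change for genes that entered only through VWF 3.5 h. Among the genes counted next, 12 cytokine, 15 chemokine and 17 NF-κB list genes reached it in control cultures. Of 17 cytokine genes 12, of 22 chemokine genes 13 and of 18 NF-κB list genes 15 had a more negative change with VWF, and 0 of each had a more positive one. Of 11 interferon-inducible GTPases 8 had a more negative and 0 a more positive change, while of 9 costimulatory genes 7 had a more negative and 1 a more positive change. Only 4 of these GTPases, and 8 of these costimulatory genes, reached the filter in control cultures, so the same limit holds. Tnf fell by 2.28 on the log2 scale in controls and the difference was −3.34 (SE 0.18, adjusted p = 6.98e-11). Il1b was called higher in controls (1.52) and lower with VWF, a difference of −7.78 (SE 0.62, adjusted p = 9.59e-09). Tnfaip3 differed by −2.12 (SE 0.35, adjusted p = 7.23e-05). Thus the falls of Tnf and Tnfaip3 were partly present without VWF, while that of Il1b was not.

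DNA replication genes rose in controls as well, 18 of 26 tested, but 11 of 27 rose more with VWF and 0 rose less. Cdc6 differed by 2.84 (SE 0.25, adjusted p = 2.89e-08) and Ccne2 by 1.71 (SE 0.28, adjusted p = 7.05e-05). Of 27 mitosis genes 7 had a more negative change with VWF, Mki67 by −1.79 (SE 0.25, adjusted p = 1.45e-05). The called genes of these lists thus deviated from the control change in opposite directions, while 16 of 27 replication and 20 of 27 mitosis genes were not called. Of the 27 mitosis genes, 27 reached the filter in control cultures but only 19 in VWF cultures, so the filter can bear on these counts. Of 21 glycolysis genes 0 had a more positive and 2 a more negative change. Pkm had a log2 fold change of 0.93 in controls against 1.74 with VWF, and the respiratory chain medians were 0.44 and 0.47.

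Of 36 interferon list genes 11 had a more negative and 5 a more positive change than controls, in which 0 of 27 tested were called by edgeR or DESeq2 and 5 had an unadjusted p under 0.05. Ifit1 differed by −3.61 (SE 0.54, adjusted p = 2.72e-05) and Irf7 by 2.94 (SE 0.45, adjusted p = 3.15e-05). The rises of Arg1 (difference 6.25 (SE 0.98, adjusted p = 4.77e-05)) and Gpr183 (4.11 (SE 0.21, adjusted p = 5.02e-11)) also exceeded the control change. Gpr183 stood below the control level at 3.5 h. It was 1.10 ± 0.130 CPM (SD, n = 5) at 3.5 h against a control level of 45.8 ± 6.68 CPM (SD, n = 5). At 16 h it was 23.9 ± 1.51 CPM (SD, n = 5), beside 58 ± 14.1 CPM (SD, n = 5) without VWF.

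LPS cultures address how far the course of VWF resembles that of a strong inflammatory stimulus. The change with VWF differed from that with LPS in 2052 of 8217 genes (25.0%), 879 (10.7%) more positive and 1173 (14.3%) more negative with VWF, a split that became 1176 and 893 when libraries were scaled by total count alone. Genes entered this test by reaching 10 TPM in 1 culture of any VWF or LPS group, so the filter limits these counts too. Of 17 cytokine genes 14 had a more negative change with VWF, and Il1b changed by −0.21 with LPS, a difference of −6.14 (SE 0.38, adjusted p = 1.29e-09). Nos2 had a log2 fold change of 3.91 with LPS and −7.47 with VWF, a difference of −11.45 (SE 0.52, adjusted p = 5.82e-11). Acod1 (−4.48 (SE 0.30, adjusted p = 3.24e-09)) and Cd14 (−3.65 (SE 0.19, adjusted p = 1.65e-10)) also differed in this direction.

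The cell cycle differed the other way. Of 27 DNA replication genes 26 had a more positive change with VWF, and the median change of the list with LPS was −1.07. Mcm5 differed by 3.46 (SE 0.33, adjusted p = 1.62e-07) and Cdc6 by 5.63 (SE 0.36, adjusted p = 2.27e-09). Of 19 mitosis genes 16 had a more positive change with VWF, their median with LPS being −3.74. Mki67 had a log2 fold change of −4.03 with LPS and differed by 2.37 (SE 0.32, adjusted p = 7.44e-06). Arg1 had a log2 fold change of 10.41 with LPS and 7.55 with VWF, and that difference was −2.93 (SE 1.25, adjusted p = 0.0576), which did not pass the test.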

How the data were processed

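RNA of 28 BMDM cultures was sequenced as paired reads of 150 bases. Per the labels and the study's methods, the authors aligned reads with STAR to GRCm38 (the submitters' processing notes also name mm10) and deposited raw counts per gene, with no normalization. For the annotation, strand setting and treatment of multimapped reads the sources used here give nothing, so reads of paralogs, overlapping genes and antisense genes may be shared.

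Groups were taken from the labels. TPM were computed from the deposited counts and exon lengths only to keep genes reaching 10 TPM in at least 1 culture of a comparison. CPM used TMM factors over the 28 cultures. Changes were tested with edgeR 4.0.16 (quasi-likelihood, robust, in R 4.3.3), with calls at an adjusted p under 0.05 and a fold over 2. The same test, with both times of control or LPS added, gave differences between changes. DESeq2 1.42.0 and other filters, scalings, fits and leave-one-out fits were alternatives. The edgeR test was tested on simulated data: of genes changed by 1.5 and 3 on the log2 scale, 98% and 99% were recovered for the VWF times (2 false calls), 90% and 100% for control (0), 85% and 98% for the difference from control (3) and 89% and 98% for that from LPS (3). Each simulation changed 200 genes, with rises and falls in equal number, and applied no TPM filter. It therefore cannot show the effect of unequal rises and falls or of the filter. No 2 VWF cultures of a group agreed within sampling noise (lowest chi-square per degree of freedom 17.3). Intervals of depth cover counting error only.

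The comparisons and gene lists were chosen with earlier results of these data known. By rule the text could name the 10 called protein-coding genes that rose most and the 10 that fell most, among those with non-overlapping groups and a mean of at least 10 TPM in the higher group, the 5 with the largest difference in CPM, the 5 with the largest difference from the control change, up to 4 members of each list with the largest change, key members of the lists and genes the study names. Other list members, among them Bst2, Ccl5, Cxcr4 and Mcm7, were named as examples after their values were seen. Exact permutation tests over cultures were 2-sided.

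Same-numbered VWF cultures had correlations of their deviations between −0.49 and 0.62 across the times. Those of VWF and LPS cultures lay between 0.198 and 0.86 at 16 h, but between −0.276 and 0.555 at 3.5 h. Those of VWF and control cultures lay between −0.682 and 0.807 over both times. Some cultures matched their own number best and others did not, so the numbers were not taken to pair the cultures. Promoter sequences came from RefSeq (GRCm38.p6).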

Additional observations from a re-analysis of the deposited data

Results flagged for a closer look

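Of 116 groups of 5 cultures examined, over the described genes and the library measures, 6 held a culture that lay far from the others by Dixon's ratio, where chance alone marks about 1 in 20 groups. VWF 16 h replicate 5 was such a culture for Ifit1 (81.9 CPM), Irf7 (716 CPM) and Hmox1 (1777 CPM), each the lowest of its group. VWF 16 h replicate 3 was the highest for Slc7a11 at 26.8 CPM. VWF 3.5 h replicate 5 was apart for Mrc1 at 671 CPM and for its total count of 76943833.

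The change over time differed between VWF and control cultures by the test of the difference in 1166 genes. Among the described genes a more negative log2 change with VWF was found for Tnf (−3.34), Il1b (−7.78), Ccl3 (−5.23), Nfkbia (−1.09), Tnfaip3 (−2.12), Socs3 (−4.64), Ifit1 (−3.61), Cd40 (−4.73), Cd14 (−3.99), Mki67 (−1.79), Cdkn1a (−3.01), Slc2a6 (−4.78), Nos2 (−6.29) and Ch25h (−6.10). A more positive one was found for Zfp36l2 (2.74), Dusp6 (3.36), Fos (2.58), Irf7 (2.94), Bst2 (1.89), Cxcr4 (3.02), Cdc6 (2.84), Ccne2 (1.71), Ccnd1 (2.70), Arg1 (6.25), Ass1 (2.31), Hmox1 (2.37), Gpr183 (4.11), Scd2 (3.18), Marco (3.28) and Fcgr1 (2.09). In controls Fos and Cxcr4 were called lower at 16 h (log2 fold change −1.89 and −1.74).

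The change differed between VWF and LPS cultures in 2052 genes. The differences in log2 change were −6.14 for Il1b, −3.65 for Cd14, −4.48 for Acod1, −11.45 for Nos2, −2.47 for Hmox1 and −2.81 for Cd38, the NAD-consuming enzyme gene. They were 3.46 for Mcm5, 5.63 for Cdc6, 2.37 for Mki67 and 2.38 for Mrc1.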

How the results depend on the processing

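The 1694 calls between VWF 16 h and 3.5 h became 3458 (1613 higher, 1845 lower) with filterByExpr, 3974 (1707, 2267) with no filter, 5379 (2747, 2632) without the fold threshold and 1083 (419 higher, 664 lower) when tested against a fold of 2; here more or fewer genes were tested or the criterion was changed. Under the same settings the control change gave 1570 (767, 803), 1524 (715, 809), 3429 (1721, 1708) and 183 (57, 126), the difference from control 1972 (836, 1136), 1904 (793, 1111), 2819 (1378, 1441) and 600 (232, 368), and the difference from LPS 3576 (1766, 1810), 3528 (1668, 1860), 4329 (1926, 2403) and 974 (383, 591). DESeq2 called 1695, of which 1671 were shared with edgeR. Scaling by total count alone gave 1725 (860 higher, 865 lower), shifting the median of all genes to 0.11, and moved the share of higher calls from 42.3% to 51.7% for the difference from control and from 42.8% to 56.8% for that from LPS.

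Leaving out each culture in turn gave 1600 to 1735 calls (672 to 759 higher, 912 to 994 lower), 616 to 832 (267 to 391, 339 to 451) for control, 1141 to 1197 (463 to 509, 646 to 716) for the difference from control and 1890 to 2408 (794 to 1120, 1080 to 1288) for that from LPS. The replicate block gave 1692 calls (726 higher, 966 lower, 1672 of them shared), 696, 1167 and 2075. Same-numbered cultures did not all correlate best with their own number. The mean total count was 4110771 higher at 16 h, and the difference ranged from −414703 without VWF 16 h replicate 2 to 9475094 with a culture left out. The difference in TMM factor was 0.0969 (exact permutation test, p = 0.0238) and ranged from 0.0802 without VWF 3.5 h replicate 3 (p = 0.0556) to 0.122, p being at most 0.0476 without any other culture, that of the mitochondrial share from −0.165 to −0.0711 and that of the top 50 genes from 4.21 to 4.99 percentage points. Summed stromal markers differed by −39.2 CPM, with −78.0 to 18.3 CPM over the fits that left out a culture, the highest without VWF 3.5 h replicate 1. Only a chosen part of the named genes was followed gene by gene over these settings. Among them Tlr4, Cxcr4, Ccnd1, Ldha, Hk2, Hmox1 and Lyz2 were not called against a fold of 2. Fos was called only without the fold threshold. Other called genes with changes just over 2-fold, such as Spi1, Bub1b and Jun, were not in this check. Depth limits genes with few reads left at 16 h, such as Il6 with 97.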

Other observations

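Gene families off the lists, chosen after their values were seen and therefore given without a test of the family, showed the following. All 4 tested Ly6 genes, which encode small anchored surface proteins, were called higher at 16 h, with log2 fold changes from 1.82 for Ly6e to 3.96 for Ly6c2 and a median of 3.19. Ly6 genes are close paralogs, and shares of their reads depend on the counting. Both tested PDGF genes were lower (Pdgfb −3.58 and Pdgfa −3.41), as were both tested adenosine receptor genes (Adora2a −4.20 and Adora2b −4.14). Of 24 TRIM genes 6 were lower and 0 higher, against 12.2% of all tested genes lower. Of 7 Schlafen genes 1 was higher, Slfn4 (1.16), and 4 were lower, with Slfn8 the lowest (−2.08). Of 7 Ms4a genes 3 were higher.

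Saa3, an acute-phase gene with one of the 5 largest rises in CPM, rose from 1083 to 5244 CPM on average (log2 fold change 2.33). Single genes outside the rule, chosen after their values were seen, included Mir155hg, the host transcript of the inflammatory microRNA miR-155, which fell from 32.7 to 0.129 CPM on average (log2 fold change −7.91). Hp, encoding haptoglobin (2.93), Sesn1, a stress-responsive gene (3.32), Foxo3 (2.81) and Gmnn, whose product blocks reloading of the replicative helicase (2.97), rose.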
